A study of Danio rerio with 3 samples.

Results

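The solute carrier genes of the zebrafish array were taken as all genes whose single platform symbol begins with slc followed by a number, leaving out slc4a1a, and each was read from its probe set with the highest mean over the 3 arrays. A probe set pools the signals of several short probes against 1 transcript. The rule found 136 genes of 39 slc families among 8793 named genes. Of these, 78 of 136 reached the expression filter, which asks that the highest of the 3 log2 values be at least 7.21, the median of all deposited values, and 5492 of 8793 genes passed it overall. In all, 71 solute carrier genes were above that line on every array and 7 on 1 or 2 arrays only. Those 7 (slc39a6, slc35b4, slc22a2, slc22a31, slc22a7b.1, slc20a1a and slc5a12) owe their place partly to the array on which they read highest, and the other 58 genes stayed below the line on all arrays. The symbols slc4a1ap and slc7a6os fit the rule but do not name carriers. The first is an adaptor protein and the second is named for its position on the strand opposite a carrier gene.

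Whole zebrafish (Danio rerio) larvae were profiled at 192 h post-fertilization (hpf) on an Affymetrix zebrafish array. The control group was kept in medium without oil, the early-window group was kept from 0 to 48 hpf over 250 mg of oil emulsion from the Gulfport shoreline, and the late-window group from 48 to 96 hpf over the same amount. Cups held 30 embryos in 100 ml of medium, and the time in clean medium before RNA was taken was 144 h after early and 96 h after late exposure. There was 1 array per group, so no difference below carries a replicate error or a test, and each describes these 3 arrays. The sources used here do not give the strain of the fish or how many larvae went into each RNA sample. All 11 organ and cell type marker lists, from liver to epidermis, had at least 3 markers above the filter.

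Solute carriers are membrane proteins that move sugars, amino acids, ions, vitamins, bile acids, metals and metabolites across membranes, most of them by using the gradient of another ion or by exchanging one substrate for another. Families are numbered by sequence, and members of a family often carry related substrates. In a fish larva they serve uptake in the gut, recovery in the kidney, ion balance in the skin, transmitter handling in the brain and traffic between the mitochondrion and the cytosol. Teleost fish keep many of these genes as a pair of copies, named a and b, that derive from a duplication of the whole genome.

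On the deposited scale no solute carrier gene was 2-fold from control on either exposed array. On the late-window array 3 of the 78 genes above the filter were at least 1.5-fold higher than control, slc43a2b, slc10a2 and slc35b4, and 3 were at least 1.5-fold lower, slc13a2, slc25a55a and slc38a5b. Over all 5492 genes, the share that much higher was 1.11% and the share that much lower 0.674%. These named late-window genes each have 1 probe set, so no second probe set stands beside their readings. On the early-window array slc43a2b was at least 1.5-fold higher and 0 solute carrier genes were at least 1.5-fold lower, beside 0.401% and 0.601% of all genes. At a difference of 0.32 on the log2 scale, a lower line, 9 solute carrier genes were higher and 8 lower in the late window. These are 11.5% and 10.3% of the 78 genes, beside 4.9% and 5.61% of all genes. In the early window 4 (5.13%) were higher and 3 (3.85%) lower, beside 2.02% and 3.55% of all genes. Of the genes counted as higher at this line, slc22a7b.1 and slc5a12 passed the filter through the late-window array alone. The genes slc35b4 and slc22a31 passed it through the exposed arrays alone. Without the filter, 12 of the 136 solute carrier genes were higher and 10 lower in the late window, beside 566 and 427 of 8793 genes. The 2-fold background was 0.31% higher and 0.091% lower in the late window and 0.091% higher and 0.0364% lower in the early window. These are whole larvae, so fewer cells of a type and less RNA per cell cannot be told apart. Below, 3 log2 values in a row are readings in the order control, early window and late window, and pairs of log2 differences from control give the early window first.

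By their median the solute carrier genes lay close to control. The median log2 difference of the 78 genes was 0.03 in the early window and 0.01 in the late window, beside 0.00 and -0.02 for all genes above the filter. Over all 136 genes the medians were 0.00 and 0.02. Of the 78 genes, 45 were above control in the early window (57.7%) and 42 in the late window (53.8%), beside 49.6% and 45.4% of all genes above the filter. The SD across the 78 genes was 0.19 in the early window and 0.28 in the late window, and that across all genes above the filter 0.17 and 0.23. Probe sets of the same gene, read from 717 genes with several bright probe sets, scattered about their gene's mean difference with an SD of 0.11 (early) and 0.16 (late). Higher and lower are relative to the median gene of an array. A set of 18 bacterial spike-in probe sets differed from the control array by -0.50 after early and 0.01 after late exposure, and on a spike-in scale every early-window value would move up by 0.50. Both windows are compared with the same control array, so a high or low control reading enters both differences.

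**Figure D1:**
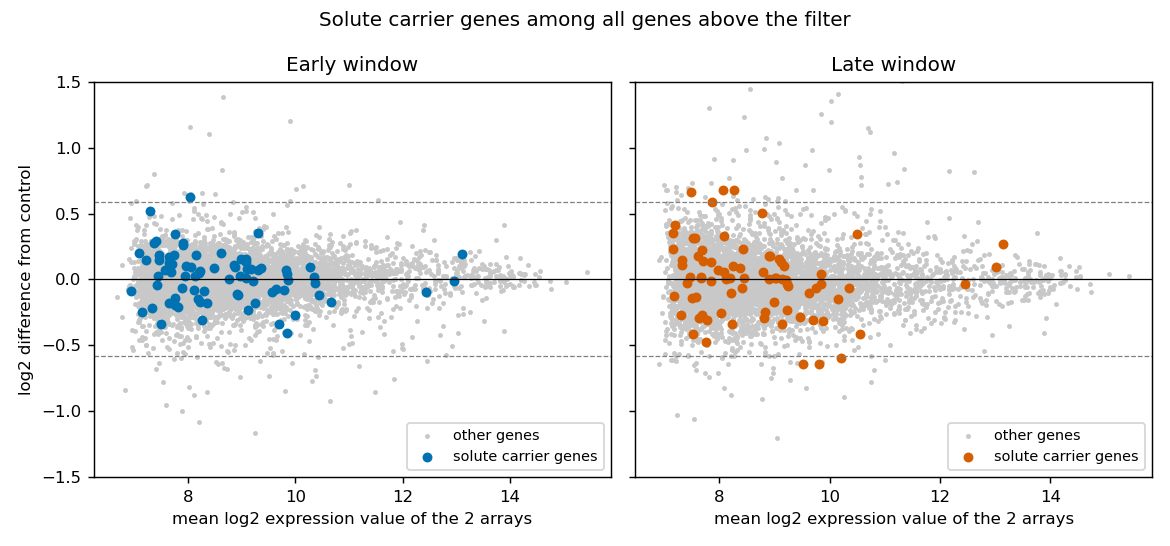
Log2 difference from control (vertical axis) against the mean log2 value of the 2 arrays compared (horizontal axis), with solute carrier genes coloured and all other genes above the filter in grey; dashed lines mark 1.5-fold. In the late window 6 solute carrier genes lie past the lines and in the early window 1; 1 early-window and 8 late-window genes lie outside the vertical axis.

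Amino acid carriers of families 1, 3, 6, 7, 38 and 43 held the gene that stood furthest above control on both exposed arrays among those above the filter, with slc10a2 level with it in the late window at a rounded log2 difference of 0.68. The gene slc43a2b encodes a carrier of the LAT4 type, which in mammals lets branched-chain and other large neutral amino acids leave cells. It read 7.72 in control larvae, 8.35 after the early and 8.40 after the late exposure. Both exposed readings were above control, by 1.54-fold in the early and 1.60-fold in the late window. Its duplicate slc43a2a read 9.13, 9.48 and 9.23 in the same order, so that copy was 1.28-fold above control in the early window and 0.10 above it on the log2 scale in the late window. The related slc43a1a, of the LAT3 type, read 7.64, 7.76 and 7.51. All 3 measured genes of family 43 were thus above the filter, and the late-window array had slc43a1a below control.

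Other amino acid carriers read lower on the late-window array. The gene slc38a5b, a sodium-coupled neutral amino acid carrier whose mammalian counterpart moves glutamine, read 10.50 in control, 10.38 in early-exposed and 9.90 in late-exposed larvae. That placed the late-window array 1.52-fold below control and the early-window array 0.12 below it on the log2 scale. Its relative slc38a4 followed with 9.31, 9.40 and 8.97, a late-window difference of -0.34, while slc38a2 differed from control by -0.23 and -0.03. The gene slc3a2b encodes a heavy chain that pairs with slc7 light chains to bring them to the cell surface, and it read 10.75, 10.58 and 10.34, which is 1.33-fold lower in the late window. Its duplicate slc3a2a read 9.34, 9.17 and 9.11. Both copies of the heavy chain were below control on both exposed arrays.

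Of the slc7 carriers above the filter, the light chain slc7a8a differed from control by 0.08 and 0.00 and the cationic amino acid carrier slc7a3a by 0.01 and -0.17. The glutamate carriers of glia and neurons, slc1a2b (12.47, 12.38 and 12.44 on the 3 arrays) and slc1a3a (8.33, 8.25 and 8.42), lay close to control on both exposed arrays. Both copies of slc6a19, the carrier of neutral amino acids in gut and kidney, were below the filter. Their log2 differences from control were -0.28 and -0.31 for slc6a19a.1 and -0.16 and -0.29 for slc6a19b. Of the 14 amino acid carriers above the filter, 8 were above control in the early window (median 0.04) and 5 in the late window (median -0.08). Over all 23 measured, which include the dopamine carrier slc6a3 by its family number, the medians were 0.00 and -0.13.

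A list of genes of the amino acid stress response, set beside these carriers, had 10 of 11 measured genes above the filter. Its median log2 difference was 0.19 in the early window (7 of 10 higher) and 0.02 in the late window (5 of 10 higher). The list was led in the early window by the transcription factors cebpb (0.60) and atf3 (0.32) and the serine synthesis enzyme phgdh (0.29), and asparagine synthetase asns differed from control by 0.18 and -0.02. The 3 genes above the filter that were lower in the early window were shmt2 (-0.12), atf4b (-0.08) and chac1 (-0.05). Below the filter, ddit4 differed from control by -0.22 and -0.45.

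**Figure D2:**
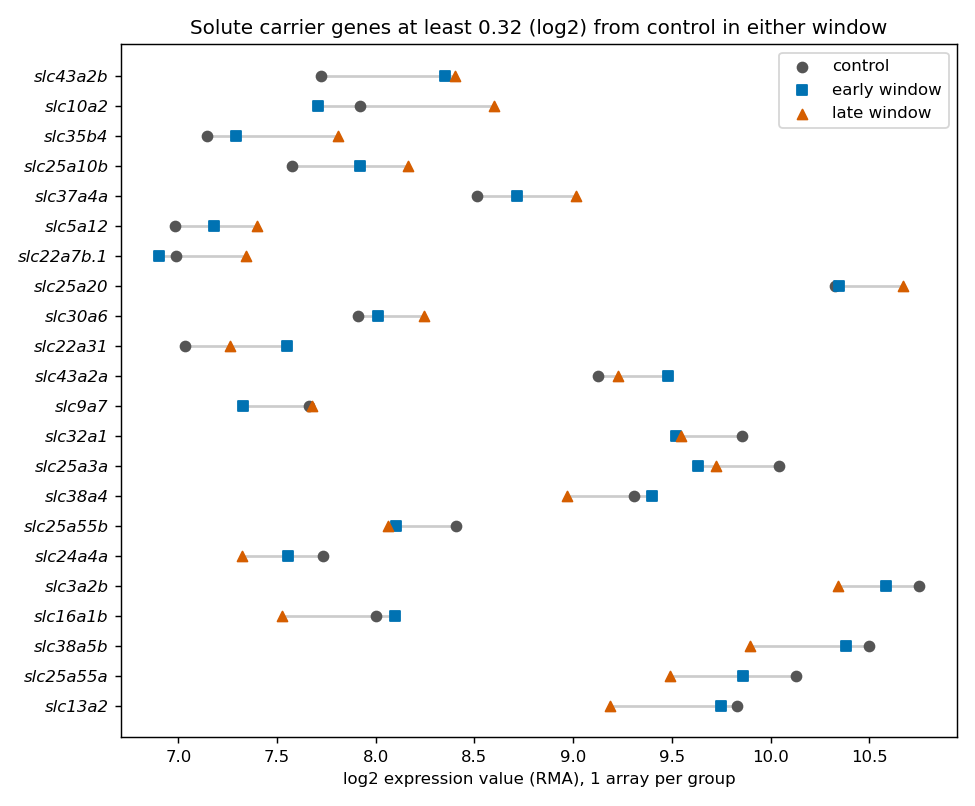
Log2 expression values on the 3 arrays for the solute carrier genes above the filter and at least 0.32 from control on the log2 scale in either window, ordered by the late-window difference; grey lines span the 3 readings of a gene. In slc43a2b both exposed arrays lie above control, and in slc10a2 and slc38a5b the late-window array stands apart from the other two.

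Carriers of bile acids, peptides and organic anions included slc10a2, slc22a7b.1 and, below the expression filter, slc15a1b, which read higher after late exposure. Other carriers of the gut and kidney read lower there. The late-window log2 difference was -0.64 for slc13a2 and, below the filter, -0.31 for slc6a19a.1 and -0.29 for slc6a19b. The gene slc10a2 encodes the sodium-dependent bile acid carrier of the ileum, which recovers bile acids from the gut lumen. Its readings were 7.92 without oil, 7.71 after early exposure and 8.60 after late exposure. The late-window array was 1.60-fold above control and the early-window array 1.16-fold below it. The ileal bile acid-binding protein fabp6, which binds bile acids inside cells of the ileum, read 10.93, 11.07 and 11.77. The intestine marker list, which includes fabp6, had 7 of 10 markers measured, 4 of them higher and 3 lower in the late window. Their median late-window log2 difference was 0.05, and those besides fabp6 ranged from -0.39 for rbp2a to 0.16 for apoa1a. The summed level of the list (log2 of the sum of linear values) was 15.16 in control, 15.17 in early-exposed and 15.28 in late-exposed larvae. The part of gut content in the slc10a2 difference was not tested.

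The oligopeptide carrier slc15a1b, the PepT1 type of the gut brush border, read 6.29 both in control larvae and after early exposure, and was 0.70 higher on the log2 scale after late exposure. It lay below the expression filter and outside the rule by which genes were chosen for naming, and it was picked with its values in view because that difference exceeded those of the genes above the filter. The lysosomal relative slc15a4 read 7.45, 7.41 and 7.47. The second family 10 gene, slc10a7, whose mammalian counterpart is not a bile acid carrier, read 6.62, 6.86 and 6.82 and was also under the filter. Of the bile acid list, 3 of 14 genes were measured: besides fabp6, cyp8b1.1, a bile acid synthesis enzyme, differed from control by 0.16 and 0.11, and nr0b2a, a nuclear receptor that represses that synthesis in mammals, by -0.18 and -0.38.

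Family 22 carries organic ions and drugs. Its organic anion carrier slc22a7b.1 read 6.99, 6.90 and 7.34 on the control, early-window and late-window arrays, a late-window difference of 0.35. The organic cation carrier slc22a2 read 7.26, 7.01 and 7.37, and its dimmer second probe set gave log2 differences of -0.25 and -0.14. Without cross-hybridising probe sets its chosen probe set drops out, and slc22a2 no longer passes the filter. The early-window array was highest in slc22a31, a family member without a settled substrate, with 7.03, 7.55 and 7.26, a difference of 0.52. All 3 family 22 genes passed the filter on some of the arrays only, so their readings are near the line. Among transporters outside the slc families, slco1d1, an organic anion transporting polypeptide, read 9.25, 9.51 and 9.79, which is 0.54 above control in the late window. ABC proteins use ATP, most of them to pump substrates out of cells. Of 8 ABC genes above the filter, 3 of which (abce1, abcf1 and abcf2a) do not encode pumps, 6 were higher in each window (median log2 differences 0.07 and 0.21), while over all 14 measured the medians were 0.02 and 0.15. Of the 8, abcb5 passed the filter through the late-window array alone and abcc4 through the exposed arrays alone. Those with the largest differences were abcb5 at 0.10 and 0.53, abca12 at 0.15 and 0.34 and abcc4 at 0.27 and 0.28 in the early and late windows.

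The sodium-coupled carriers of family 13 went different ways. The dicarboxylate carrier slc13a2, which takes up citrate-cycle intermediates such as succinate in the gut and kidney of mammals, read 9.83 in control, 9.75 in early-exposed and 9.18 in late-exposed larvae. The late-window array was 1.56-fold lower than control and the early-window array was within 0.08 of it. The sulfate carrier slc13a1 read 5.91, 5.65 and 6.34, with all readings below the filter, and the citrate carrier slc13a5a read 4.19, 4.21 and 4.26. In the late window slc13a2 was thus lower and slc13a1 higher, the latter by 0.43 on the log2 scale.

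**Figure D3:**
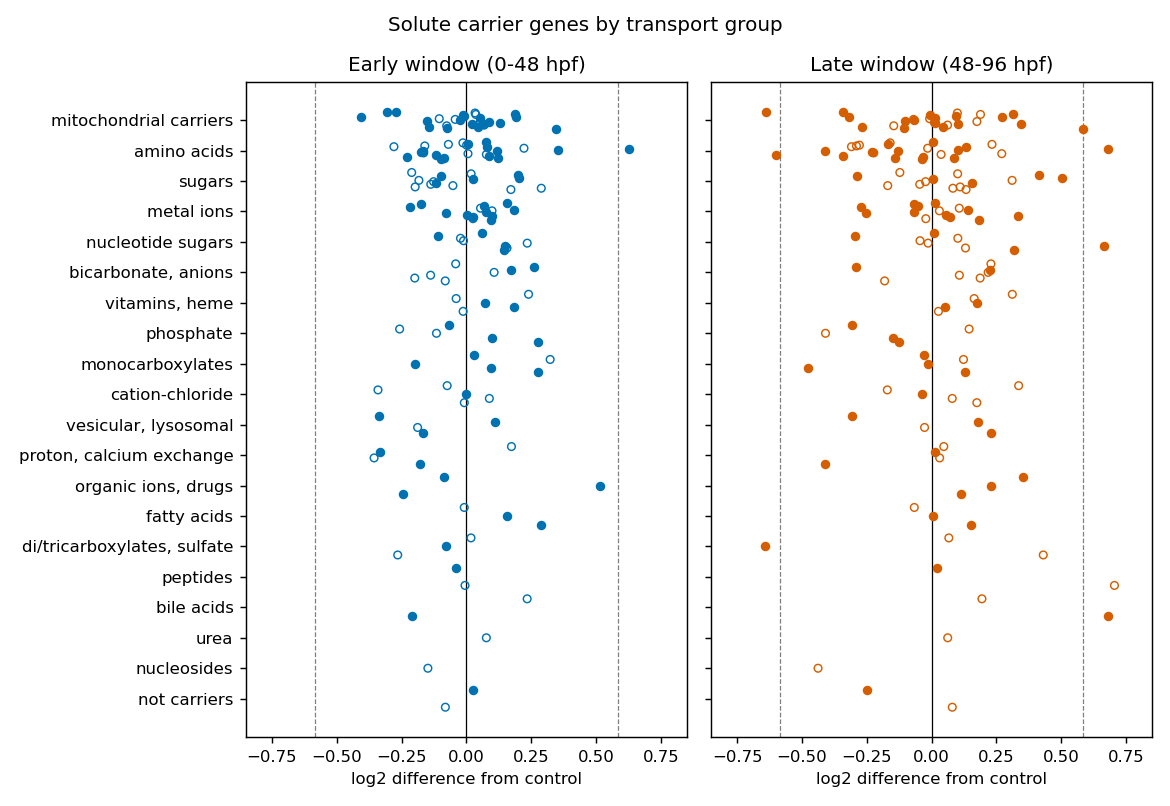
Log2 differences from control for all 136 solute carrier genes by transport group, in the early window (left) and the late window (right); each point is a gene, filled when above the expression filter and open when below, and dashed lines mark 1.5-fold. In most groups the genes lie on both sides of control, and the 6 filled late-window points past the lines belong to 5 groups.

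Carriers of lactate and related monocarboxylates include slc16a1b, of the MCT1 type, which read 8.00 without oil, 8.10 after early exposure and 7.52 after late exposure. Its late-window log2 difference was -0.48, while the early-window array lay slightly above control. The others above the filter, slc16a3b of the MCT4 type, slc16a9b and slc16a12b, a creatine carrier in mammals, lay between -0.03 and 0.13 in the late window. In the early window slc16a12b differed from control by 0.27 and slc16a3b by -0.20. A sodium-coupled lactate carrier of another family, slc5a12, read 6.98, 7.18 and 7.40 and passed the filter through the late-window array alone.

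Epidermal markers were lower beside slc13a2, slc38a5b, slc16a1b and slc3a2b in the late window. All 6 epidermal markers above the filter, of 7 measured and 8 listed, were lower in the late window, and the log2 summed level of the 7 was 15.15 without oil, 15.15 after early exposure and 14.70 after late exposure. Ionocytes, the ion-transporting cells of the skin, had 3 of 4 measured markers above the filter, all lower in the late window, and the summed level of the 4 was 11.87, 11.91 and 11.71. Of the 6 measured kidney tubule markers, 3 were above the filter, 1 of them higher and 2 lower in the late window. The summed level of the 6 was 11.60, 11.61 and 11.64. The part of epidermis, ionocytes or kidney tubule in these differences was not tested. Of the 12 sodium pump subunits above the filter, 9 were lower in the late window (median log2 difference -0.09) and 8 in the early window (median -0.07), among them atp1a1a.3 at -0.51, atp1b3a at -0.33 and atp1a1b at -0.28 in the late window. The subunits atp1a1a.2 and atp1a1a.3 are also counted among the ionocyte markers and atp1a1a.4 among the kidney tubule markers, so the lists overlap. All 5 measured aquaporins, the water channels, were above the filter, with late-window log2 differences from -0.33 for aqp3a to 0.44 for aqp12, and aqp9b, which passed the filter on the control array alone, at -0.44 in the early window.

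Ion exchangers and phosphate carriers stayed within 1.5-fold of control. The anion exchanger slc4a2a read 7.78 in control larvae, 8.04 after the early and 7.49 after the late exposure, so the exposed arrays lay on opposite sides of control. Its 2 dimmer probe sets did not share that pattern, with log2 differences of 0.03 and 0.19 in the early window and 0.04 and 0.13 in the late window. The gene slc26a5 encodes prestin, the motor protein of mammalian hair cells, and differed from control by 0.17 and 0.23. Of 7 carriers measured in families 4 and 26, these 2 passed the filter. The sodium-proton exchanger slc9a7 of internal membranes read 7.66, 7.33 and 7.68, lower on the early-window array only, with a difference of -0.34. The sodium-calcium-potassium exchanger slc24a4a read 7.73, 7.55 and 7.32, a late-window difference of -0.41. Of 5 cation-chloride cotransporters measured, 1 passed the filter, slc12a7b, with log2 differences of 0.00 and -0.04. The sodium-phosphate carriers slc20a1a, slc20a1b and slc34a2b differed from control by -0.13, -0.15 and -0.31 in the late window and 0.27, 0.10 and -0.07 in the early window.

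Vesicular carriers load transmitters into synaptic vesicles. The gene slc32a1, the vesicular carrier of GABA and glycine in inhibitory neurons, read 9.86 in control, 9.52 in early-exposed and 9.55 in late-exposed larvae. Both exposed arrays were below control, with log2 differences of -0.34 and -0.31. The GABA-synthesising enzyme gad1b read 10.39, 10.05 and 10.14. The acetylcholine carrier slc18a3a of cholinergic neurons read 8.81, 8.92 and 8.98, above control on both exposed arrays. Of 9 measured neuronal markers, gad1b among them, 7 were lower after early and 8 after late exposure. Their log2 summed level was 13.92 in control larvae, 13.73 after the early and 13.74 after the late exposure. Photoreceptor markers were also lower: all 7 above the filter, of 8 measured and 12 listed, lay below control in both windows, and the summed level of the 8 was 15.19, 14.66 and 14.89. All 8 measured exocrine pancreas markers were lower in the early window and 6 of 8 in the late window, with summed levels of 15.47, 15.02 and 15.46. The lowest early-window differences from control among solute carrier genes above the filter, picked by rank, were those of slc25a3a (-0.41), slc32a1 (-0.34) and slc9a7 (-0.34). In the late window these genes were at -0.32, -0.31 and 0.01 in the same order. The part of neurons, photoreceptors or pancreas in these differences was not tested. The lysosomal sialic acid carrier slc17a5 read 8.31, 8.15 and 8.54.

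Family 25, most of whose members are carriers of the mitochondrial inner membrane, made up the largest set, with 25 genes measured and 18 above the filter. Those carriers exchange metabolites, nucleotides, phosphate and cofactors between the mitochondrion and the cytosol. The median log2 difference of the 18 genes was 0.01 in both windows, with 9 above and 9 below control in the early window and 10 above and 8 below in the late window. Over all 25 the medians were 0.02 and 0.01. Family 25 therefore sat at the level of the median gene, while single members ranged from -0.41 to 0.34 in the early window and from -0.64 to 0.58 in the late window.

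At the upper end was slc25a10b, the dicarboxylate carrier that exchanges malate and succinate for phosphate, with readings of 7.58 without oil, 7.92 after early exposure and 8.16 after late exposure. Its late-window difference of 0.58 lay just under 1.5-fold and its early-window difference was 0.34. The carnitine-acylcarnitine carrier slc25a20, which admits fatty acids for oxidation, read 10.33, 10.35 and 10.67, higher on the late-window array only. The gene slc25a44b, whose mammalian counterpart carries branched-chain amino acids, differed from control by 0.19 and 0.31.

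At the lower end were both copies of slc25a55, a mitochondrial carrier gene pair. The copy slc25a55a read 10.13 in control larvae, 9.86 after the early and 9.49 after the late exposure, and was 1.56-fold lower than control in the late window. Its partner slc25a55b read 8.41, 8.10 and 8.06. Both copies were below control on both exposed arrays. The genes slc25a14, an uncoupling protein of the brain (-0.14 and -0.27), and slc25a32a, a folate carrier (-0.15 and -0.10), also lay below control, by these log2 differences. The second bright probe set of slc25a14 gave differences of -0.22 and -0.18.

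The mitochondrial phosphate carrier, which supplies phosphate for ATP synthesis, is encoded by slc25a3a and slc25a3b. These copies lay on opposite sides of control. The copy slc25a3a read 10.04 in control, 9.63 in early-exposed and 9.72 in late-exposed larvae, while slc25a3b read 13.01, 13.20 and 13.28. Their log2 differences from control were -0.41 and 0.19 in the early window and -0.32 and 0.27 in the late window. The adenine nucleotide carrier slc25a4, which exchanges ATP for ADP, read 12.97, 12.96 and 13.06. The carriers of aspartate and glutamate (slc25a12), citrate (slc25a1a), oxoglutarate (slc25a11), S-adenosylmethionine (slc25a26) and pyrimidine nucleotides (slc25a33) lay between -0.10 and 0.10 of control on the log2 scale in both windows. A second bright probe set of slc25a11 gave -0.34 in the late window.

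**Figure D4:**
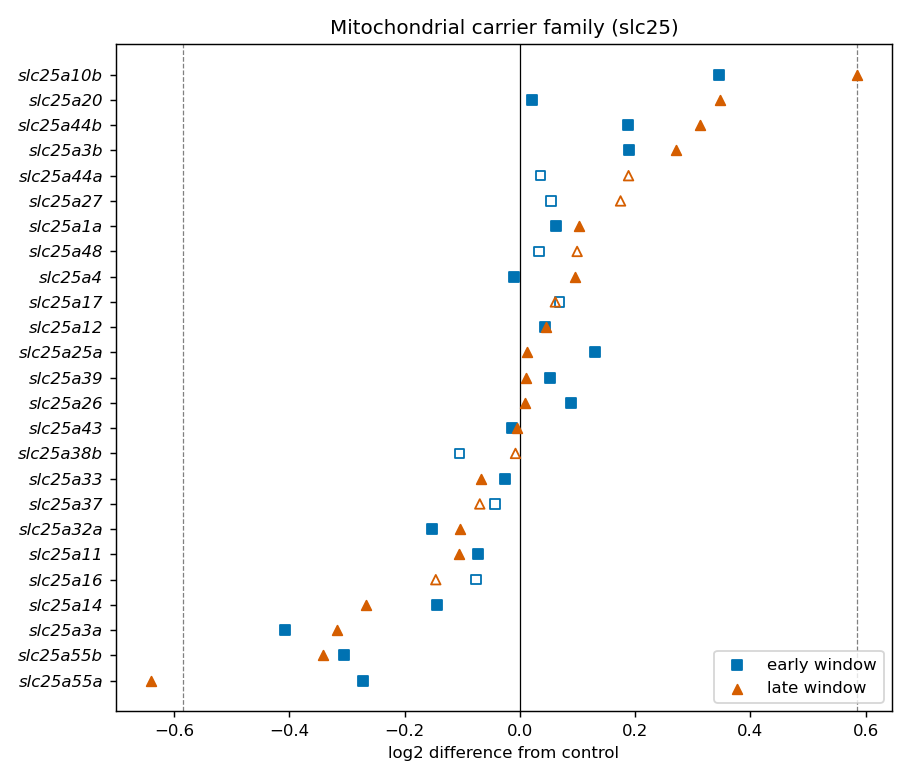
Log2 differences from control of the 25 genes of the mitochondrial carrier family (slc25) in the early (squares) and late (triangles) window, filled when above the expression filter, ordered by the late-window difference; dashed lines mark 1.5-fold. The gene slc25a55a lies past the lower line at -0.64 and slc25a10b lies at the upper line at 0.58, both in the late window.

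Duplicate copies could be compared in 10 pairs, of which 6 had both copies above the filter. In each comparison with control, 4 of the 6 pairs had both copies on the same side of control and 2 on opposite sides. The pairs on opposite sides were slc25a3 and slc37a4. The gene slc37a4a, one copy of the carrier that brings glucose 6-phosphate into the endoplasmic reticulum for glucose release, read 8.51 without oil, 8.72 after early exposure and 9.01 after late exposure, while slc37a4b read 9.61, 9.51 and 9.32. Their late-window log2 differences were 0.50 and -0.29. A second, dim probe set of slc37a4a gave log2 differences of -0.05 and -0.06 and does not share the pattern. Whether probes of one copy also bind transcripts of the other was not tested.

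**Figure D5:**
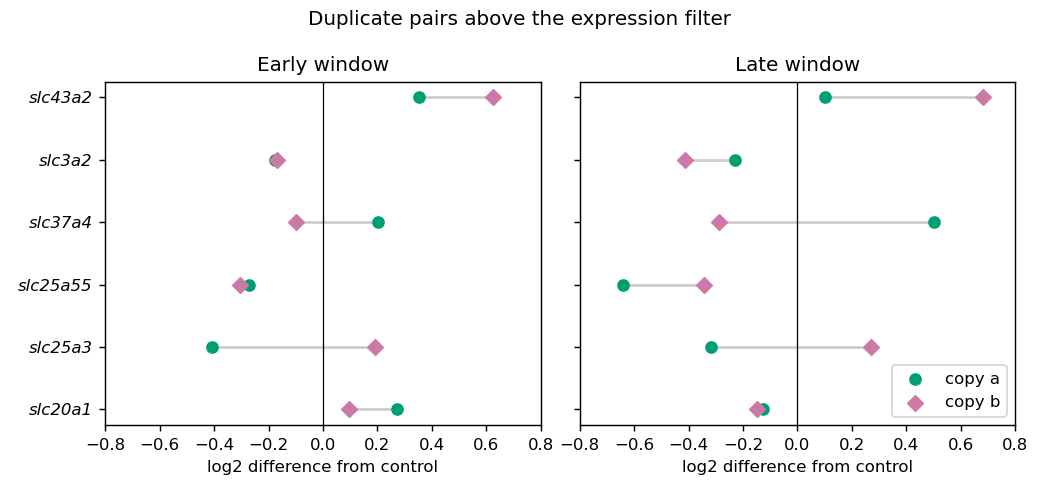
Log2 differences from control of copy a (circles) and copy b (diamonds) for the 6 duplicate pairs with both copies above the filter, in the early window (left) and the late window (right). The copies of slc25a3 and slc37a4 lie on opposite sides of control in both panels, and the copies of slc3a2 and slc25a55 lie below it.

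Liver markers were higher beside slc37a4a, slc25a10b and slc25a20. Of the 7 liver markers measured, all above the filter, 6 were higher in the late and 5 in the early window. The log2 summed level of the markers was 15.31 in control, 15.35 in early-exposed and 15.49 in late-exposed larvae. The part of liver content in these differences was not tested.

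Among the remaining sugar carriers, slc2a3a, a glucose carrier of the GLUT3 type, differed from control by -0.12 and 0.16, and 7 of the 8 family 2 genes were below the filter. Nucleotide sugar carriers bring building blocks for glycan synthesis into the Golgi and endoplasmic reticulum. In this group slc35b4, a carrier of UDP-sugars, read 7.14 in control larvae, 7.29 after the early and 7.81 after the late exposure, 1.59-fold above control in the late window, and its control reading lay below the filter. In the late window slc35a4 had a log2 difference of 0.317, just under the lower line of 0.322. The late-window difference of slc35f6 was -0.29 on its brighter and 0.26 on its second bright probe set.

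Metal carriers lay near control, with 11 of 14 genes above the filter and median log2 differences of 0.07 and 0.01. The zinc carrier slc30a6 of the Golgi (7.91, 8.01 and 8.24) was 0.33 above control in the late window, and the zinc importer slc39a6 was below it in both (-0.22 and -0.27). The brighter probe set of slc30a9, named as a zinc carrier, gave a late-window difference of -0.25 and the other two 0.02 and -0.01. The iron, copper and heme carriers named next lay closer to control on their chosen probe sets. The iron exporter ferroportin, slc40a1, read 9.01, 9.16 and 9.02, and slc11a2, an iron importer, differed from control by 0.09 and 0.18. The copper importer slc31a1 had 2 bright probe sets that differed. The chosen one gave log2 differences of 0.07 and -0.07 and the other -0.24 and -0.58. Heme carrier slc48a1b read 8.06, 8.25 and 8.12. The gene slc49a4, placed in the mixed group of vitamin and heme carriers, read 7.53, 7.60 and 7.70. The fatty acid carriers slc27a1a and slc27a2a differed from control by 0.29 and 0.16 in the early window and 0.15 and 0.01 in the late window. The non-carrier slc7a6os read 8.96, 8.98 and 8.71.

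Set against each other without the control array, the exposed arrays differed by at least 1.5-fold in 1 solute carrier gene, slc10a2, which was 1.85-fold higher in the late window (1.22% of all genes were that much higher), and in 0 genes the other way (0.528%). On the spike-in scale slc10a2 fell to a log2 difference of 0.38, under 1.5-fold. There 0 solute carrier genes were at least 1.5-fold higher and 30 that much lower in the late window, beside 0.237% and 33.8% of all genes. At 2-fold on the deposited scale the count was 0 in both directions, beside 0.328% and 0.0728% of all genes. At 0.32 on the log2 scale 7 were higher and 7 lower in the late window, beside 4.15% and 3.93% of all genes. Among them slc35b4, slc22a7b.1, slc22a2 and slc20a1a passed the filter on some of the arrays only. After slc10a2 the highest late-minus-early differences were slc35b4 (0.52), slc22a7b.1 (0.44), slc17a5 (0.40) and slc22a2 (0.36). The dimmer probe set of slc22a2 gave 0.11. The lowest were slc16a1b (-0.57), slc13a2 (-0.56), slc4a2a (-0.55), slc38a5b (-0.48) and slc38a4 (-0.43). The gene slc43a2b, far from control on both exposed arrays, differed by 0.05 between them.

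Groups with few genes above the filter are given by the range of log2 differences over all their measured genes. Families 2, 5 and 37, which carry sugars and, in family 5, also vitamins and monocarboxylates, had 5 of 14 genes above the filter and ranged from -0.21 to 0.29 in the early window. The phosphate carriers had 3 of 5 above it and ranged from -0.26 to 0.27, and the nucleotide sugar carriers and relatives of family 35 had 4 of 8 and ranged from -0.11 to 0.23. In the late window the ranges were from -0.29 to 0.50, from -0.41 to 0.14 and from -0.29 to 0.66 in the same order. Each of these groups had genes on both sides of control in both windows. Vitamin and heme carriers, with 2 of 5 above the filter, ranged from -0.04 to 0.24 in the early window, and the exchangers of families 8, 9 and 24, with 2 of 4, from -0.36 to 0.17.

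Solute carrier genes below the filter, 58 in all, had median log2 differences of -0.01 after early and 0.06 after late exposure. Their differences lay between -0.36 and 0.32 in the early window and between -0.44 and 0.70 in the late window. Neither the nucleoside nor the urea carrier measured passed the filter, and the former, slc29a2 (4.03, 3.88 and 3.59), was the lowest of them in the late window and slc15a1b the highest. Without the filter, 4 of the 136 genes were at least 1.5-fold higher in the late window and 3 at least 1.5-fold lower, beside 0.887% and 0.603% of 8793 genes.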

How the data were processed

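The authors deposited 1 log2 expression value per probe set and array, for 15617 probe sets on 3 arrays, made with RMA per the submitters' processing notes. That method corrects background, equalises the arrays' intensity distributions and combines the probes of a set. The sources used here do not name its software. Array medians were 7.22, 7.20 and 7.23 (control, early, late), and nothing was rescaled. The platform annotation of 2016 gave the gene names: 10802 had 1 symbol, 135 several and 4680 none. Of those with 1 symbol, 10718 matched a RefSeq gene (GRCz12tu) by Entrez ID, among them all 157 probe sets of the 136 solute carrier genes. A further 5 probe sets with several symbols, 1 of them slc, were not used. Of the 136 genes, 18 had several probe sets.

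Differences were taken with Python 3.11.15 and pandas 2.3.3. With 1 array per group there was no test, and the number of arrays limits the precision. A gene counted as higher or lower at 1.5-fold (2-fold, and 0.32 on the log2 scale, beside it). The naming rule took the 10 highest and 10 lowest genes above the filter in each window and 5 each between windows. It added the 3 members of each transport group with the largest difference from control, all of slc10, slc13 and slc43, slc25 genes past 1.3-fold, and the 3 with the highest values. Other members and list genes that are named complete a family, pair or list and were chosen after their values were seen. Members, lists and thresholds were chosen with earlier results of these data known. Counting was tested on simulated data with less noise and larger shifts than in these arrays, so that test checked the code only. Alternatives were 4 scalings, 2 filters, 3 choices of probe sets and the fold.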

Additional observations from a re-analysis of the deposited data

Results flagged for a closer look

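The naming rule took 52 genes. In 4 of them the exposed arrays lay on opposite sides of control by more than the SD between probe sets in both comparisons. The naming rule took partly the extremes of each window and between windows, which favours such genes. The share over all genes was not computed, so whether 4 is many is not known. With 1 array per group the difference between windows was not tested. The late-minus-early difference was 0.89 for slc10a2 (early -0.21, late 0.68), 0.70 for slc13a1 (-0.27 and 0.43, below the expression filter), 0.40 for slc17a5 (-0.17 and 0.23) and -0.55 for slc4a2a (0.26 and -0.29). The 2 other probe sets of slc4a2a, both below the filter, did not show it. The SD was taken from probe sets above the filter, so it was not measured at the level of slc13a1. It describes scatter between probe sets on the same arrays and not between larvae. On the spike-in scale all early-window values rise by 0.50, and slc10a2, slc13a1 and slc17a5 would then be above control in both windows.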

How the results depend on the processing

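No paired analysis was possible because each group has 1 array. The early-window count of solute carrier genes past 1.5-fold, 1 in all, was 7 at 0.32 on the log2 scale, 0 at 2-fold, 0 with the filter at the 75th percentile and 29 on the spike-in scale. The late-window count of 6 was 17 at 0.32 on the log2 scale and 0 at 2-fold. Between the windows the count of 1 was 14 at 0.32 on the log2 scale, 0 at 2-fold, 3 with median centring, 2 with a second quantile normalization, 3 without the filter and 30 on the spike-in scale, all of them lower in the late window; slc10a2, the gene past 1.5-fold as reported, was at 0.38 there. On the spike-in scale 25.8% of all genes were at least 1.5-fold higher in the early window than in control. On that scale 33.8% were that much lower in the late than in the early window. The median of the solute carrier genes there was 0.53 in the early window and -0.55 between the windows. The median of all genes moved by 0.50 and -0.51 with that scaling, which shifts every gene alike. With quantile normalization and with loess, slc38a5b fell under 1.5-fold in the late window and slc25a10b passed it. No gene past 0.32 changed sign under any alternative that gave it a value, except on the spike-in scale, where 3 early-window genes (slc25a3a, slc9a7 and slc32a1) and 5 between the windows (slc25a20, slc22a2, slc22a7b.1, slc9a7 and slc17a5) did. All genes past 0.32 except slc37a4a, slc22a2 and slc4a2a have 1 probe set. The other probe sets of these genes are below the filter. That of slc37a4a gave -0.06 in the late window, and those of slc4a2a gave 0.01 and -0.06 between the windows. No alternative read slc37a4a or slc4a2a from such a dim probe set alone, so their kept sign says nothing about those probe sets. For a gene with 1 probe set the filters and probe set choices keep its value or drop it. Only the scalings could turn its sign, and median centring shifts every gene alike and by far less than 0.32. The mean over probe sets put slc37a4a at 0.22, slc30a9 at -0.08 and slc35f6 at -0.02 in the late window. Early-window medians of small groups turned sign with the filter at the 75th percentile (nucleotide sugar carriers -0.11, sugar carriers -0.10), without the filter (phosphate carriers -0.07) and with the mean over probe sets or no cross-hybridising probe sets (family 22, 0.22), and the late-window median of nucleotide sugar carriers turned to -0.29 at the 75th percentile, so ranges are given for such groups. Readings near the filter have the least signal over background, and with 1 array per group no difference has a replicate error.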
